A study of Macaca fascicularis with 6 samples.

Results

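Solute carrier genes were described in corneal epithelial cells of cynomolgus monkeys (Macaca fascicularis). All cells came from cornea of wild-type (WT) animals: uninjured cornea, which the series counts as day 0, and cornea 1 day and 3 days after a corneal injury, with 2 samples in each of the 3 groups. Single cells were captured on the 10x Genomics platform and their full-length cDNA was read with HIT-scISOseq, a long-read single-cell method. The labels name neither the kind of wound nor the age of the animals. They also do not say that the 2 samples of a group are from separate animals, so each p-value sets a difference against the spread of samples that may be technical repeats. The members are the genes whose names start with SLC and a digit and that had at least 50 counts summed over the 6 gene tables, without SLC2A1, SLC16A3, SLC7A11 and SLC40A1. There were 193 such genes among the 14623 genes of the tables. Of all 256 genes named in this way, 59 had fewer than 50 counts. The members nearest to the threshold were SLC6A15 and SLC25A45 with 50 counts each and SLC10A6 with 53 counts, and the nearest genes outside it were SLC43A3 with 40 counts and SLC25A18 and SLC12A8 with 39 counts each. All 193 members passed the filter on low counts of the fit over days. The summed counts chose the members, so these totals are a description, and a member near the threshold could pass through the group in which it was high. Of the members, 188 encode transporters and 5 encode proteins that only carry a transporter's name: SLC9A3R1, SLC9A3R2, SLC2A4RG, SLC4A1AP and SLC7A6OS.

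Solute carriers are membrane proteins that move amino acids, sugars, ions, vitamins and metabolites across membranes without splitting ATP themselves. Many use the sodium gradient that the sodium pump maintains, others exchange one solute for another, and the SLC25 family sits in the inner mitochondrial membrane while the SLC35 family serves the Golgi and endoplasmic reticulum. The cornea has no blood vessels, so its epithelium draws nutrients from the aqueous humour, the tear film and the limbus, and it moves chloride, bicarbonate and lactate across its layers. The members were placed in substrate groups by family number, so a protein whose own substrate departs from its family is listed with the family.

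The 6 tables held 1068 to 1565 cell barcodes and 3733442 to 4928103 counts each, with a median of 2462 to 4447 counts per barcode. The share of all counts that fell on members was 0.785% and 0.801% in uninjured cornea, 0.757% and 0.799% on day 1, and 0.624% and 0.613% on day 3. The corneal epithelial markers KRT12, KRT3, PAX6 and KRT5 were present in every sample, with a summed level of 22260 to 27600 CPM (the usual library-scaled count, here relative to the TMM-scaled library size, and the unit of every level that follows). Other lists moved between groups. Basal markers summed to 12710 and 12330 CPM in the uninjured samples, 7975 and 8073 CPM at day 1, and 37300 and 35660 CPM at day 3. Keratocyte and fibroblast markers, all 6 detected but with KERA, LUM, COL1A2 and COL3A1 at 0 in at least 1 sample, summed to 542 and 418 CPM in the uninjured samples, 205 and 189.5 CPM at day 1, and 789 and 781 CPM at day 3. Conjunctival and goblet markers, 5 of 7 detected with KRT13 and MUC5AC at 0, summed to 2848 to 3397 CPM in the uninjured and day 1 samples and to 5805 and 5838 CPM at day 3. Immune markers, 6 of 7 detected with CD3E at 0, ranged between 130.1 and 248 CPM, corneal endothelial markers between 12.8 and 28 CPM and melanocyte markers between 22.7 and 82 CPM, and no red blood cell marker had a count. The part of these shifts in the results that follow was not tested. A sum over a sample's cells cannot tell fewer cells of a type from less RNA per cell. Pairs of samples shared at most 2 barcodes, and doublets were not removed.

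Members were called lower more often than higher at day 1. Counts were summed over the barcodes of each sample and tested with edgeR's quasi-likelihood test, with Benjamini-Hochberg adjustment over all 12294 genes tested and a threshold of 0.05, and ± after a log2 change is its standard error. At day 1 against uninjured, 39 of the 193 members were called higher and 68 lower, which is 20.2% and 35.2% of the members. Among all genes tested, 30.5% were called higher and 31.7% lower, and the median log2 change was -0.26 over the members and -0.06 over all genes. At day 3 against uninjured, 41 members were called higher and 58 lower, 21.2% and 30.1%, against 28.8% and 26.4% of all genes, with medians of -0.16 over the members and -0.03 over all genes. At day 3 against day 1, 56 members were called higher and 48 lower, against 30.5% and 28.8% of all genes. Against uninjured, the share of members called higher was below that of all genes at both days, and the share called lower was somewhat above it. These changes are relative to TMM scaling. Scaling to the totals alone shifted the median over the 12294 genes to -0.40 for day 1 and to -0.46 for day 3, and under it 25 members were called higher and 99 lower at day 1, and 17 higher and 103 lower at day 3. DESeq2 called 22 members higher and 30 lower at day 3 against uninjured. No share of all genes stands beside the counts under these alternatives, here or in the groups below. They show how the calls depend on the method and do not compare members with other genes. Against a 2-fold change, 13 members were higher and 23 lower at day 1, beside 7.74% and 8.53% of all genes, and 11 were higher and 8 lower at day 3, beside 6.98% and 4.68% of all genes. At day 3 against day 1 the same test left 19 higher and 9 lower, beside 8.17% and 4.75% of all genes. The counts of this test include members not listed in either sample of a group, which may have had a few counts there. At day 1 these were SLC22A4, SLC35F2, SLC44A4 and SLC34A3 among the higher and SLC29A3, SLC46A1, SLC37A2 and SLC10A6 among the lower.

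**Figure D1:**
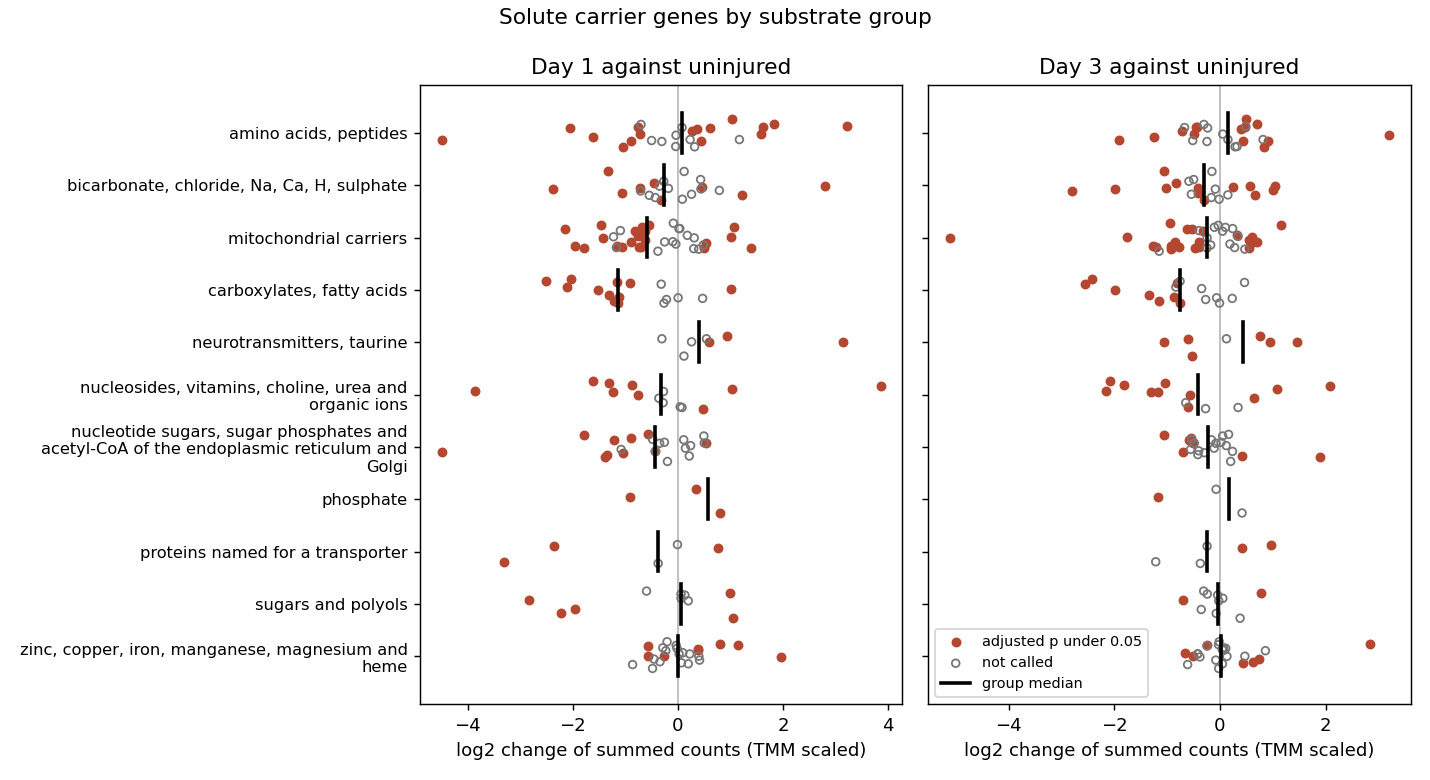
Each point is 1 solute carrier gene and the x axis is its log2 change at day 1 (left) or day 3 (right) against uninjured after TMM scaling. Filled points have an adjusted p under 0.05, black bars are medians over all members of a substrate group, and members absent from both tables of the uninjured or the day 1 group are not drawn. The carboxylate and fatty acid group lies furthest to the left, with medians of -1.14 at day 1 and -0.75 at day 3.

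Several amino acid transporters were higher at day 1, while others in the same group fell. Of the 25 amino acid and peptide transporters, 9 were called higher and 7 lower at day 1 (median log2 change 0.08), and 8 higher and 6 lower at day 3 (median 0.15). Under scaling to totals alone, 5 were higher and 11 lower at day 1 and 2 higher and 10 lower at day 3. Among all genes tested, 30.5% were called higher and 31.7% lower at day 1, and 28.8% and 26.4% at day 3, near the 36% and 28% of this group at day 1 and its 32% and 24% at day 3. The balance of calls turned with the scaling. SLC1A5, a sodium-dependent exchanger of glutamine and other neutral amino acids, had 4.58 and 2.79 CPM in the uninjured samples, 32.6 and 35.5 CPM at day 1, and 4.61 and 5.64 CPM at day 3. The day 1 samples were far above the other 4, and the day 1 level was 9.29-fold higher than in uninjured cornea (log2 change 3.22 ± 0.20, adjusted p = 1.06e-07), while the day 3 level was not called different from uninjured. SLC38A1, a sodium-coupled importer of glutamine, had 27.5 and 26 CPM in the uninjured samples, 97.8 and 92.1 CPM at day 1, and 42.6 and 44.9 CPM at day 3. Its level rose at day 1 (log2 change 1.83 ± 0.091, adjusted p = 1.81e-08) and was lower again at day 3 than at day 1 (log2 change -1.12). SLC7A1, the cationic amino acid transporter that brings in arginine and lysine, had 37.1 and 35.4 CPM in the uninjured samples, 115 and 106 CPM at day 1, and 46.3 and 54.7 CPM at day 3, a rise of 3.07-fold at day 1.

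The second cationic transporter of the group went the other way. SLC7A2, which also carries arginine and lysine, had 33.3 and 34 CPM in the uninjured samples, 1.32 and 1.67 CPM at day 1, and 8.98 and 8.83 CPM at day 3. The 3 groups did not overlap: SLC7A2 was 22.4-fold lower at day 1 (log2 change -4.49 ± 0.21, adjusted p = 1.21e-08) and 3.77-fold lower at day 3 than in uninjured cornea (log2 change -1.91). SLC66A3, a PQ-loop protein, fell at both days, with log2 changes of -1.61 at day 1 and -1.25 at day 3. SLC38A5, an exporter and importer of glutamine coupled to sodium and protons, was the member of the group that rose most at day 3. Its levels were 8.97 and 4.88 CPM in the uninjured samples, 5.73 and 7.77 CPM at day 1, and 64.2 and 60.8 CPM at day 3. The uninjured and day 1 samples overlapped, and both day 3 samples were 9.15-fold higher than uninjured on average (log2 change 3.19 ± 0.20, adjusted p = 1.25e-07).

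The large neutral amino acid exchangers SLC7A5 and SLC7A8 were both called higher at day 1, and at day 3 SLC7A5 was called lower. SLC7A5 (LAT1) had 161 and 169 CPM in the uninjured samples, 199.7 and 200.1 CPM at day 1, and 106 and 94.9 CPM at day 3. It fell at day 3 (log2 change -0.71 ± 0.082, adjusted p = 1.97e-05). Its day 1 log2 change was 0.28 (adjusted p = 0.00823), which was -0.060 with scaling to the totals alone and not called without uninjured replicate 1 (0.24). SLC7A8 (LAT2), which shares its partner chain with SLC7A5, had 55.8 and 45.9 CPM in the uninjured samples, 110 and 97.1 CPM at day 1, and 67 and 76 CPM at day 3. It rose at day 1 (log2 change 1.04 ± 0.11, adjusted p = 7.5e-06). Its day 3 log2 change of 0.50 was not called with scaling to the totals alone. SLC3A2, the heavy chain that both exchangers need at the membrane, had 51.4 and 46.2 CPM in the uninjured samples, 68.3 and 62.7 CPM at day 1, and 61 and 70.9 CPM at day 3, with log2 changes of 0.43 and 0.43 that were not called with scaling to the totals alone. SLC38A2, a sodium-coupled importer of small neutral amino acids with the most counts in the group, had 456 and 486 CPM in the uninjured samples, 502 and 494 CPM at day 1, and 346 and 354 CPM at day 3. It fell at day 3 (log2 change -0.43 ± 0.077, adjusted p = 0.000595), and at day 1 its log2 change was 0.08 after TMM scaling and -0.26 with scaling to the totals alone. SLC7A1, SLC7A8 and SLC3A2 were not picked by the rule for named members and were chosen after their values were seen.

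SLC6A14 rose at both days. It encodes a sodium- and chloride-driven importer of neutral and cationic amino acids that stands here with its family of neurotransmitter, taurine and creatine transporters. SLC6A14 had 68.7 and 86.9 CPM in the uninjured samples, 689.5 and 686 CPM at day 1, and 214 and 216 CPM at day 3. Every day 1 sample was above every day 3 sample, and every day 3 sample above every uninjured one. The level was 8.82-fold higher at day 1 (log2 change 3.14 ± 0.10, adjusted p = 9.8e-10) and 2.75-fold higher at day 3 than in uninjured cornea (log2 change 1.46 ± 0.10, adjusted p = 4.43e-07), and day 3 was lower than day 1 (log2 change -1.68). SLC6A6, the taurine transporter, had 141 and 142 CPM in the uninjured samples, 217 and 208 CPM at day 1, and 67.7 and 68.9 CPM at day 3. It moved in opposite directions at the 2 days, with a rise at day 1 (log2 change 0.59 ± 0.069, adjusted p = 1.99e-05) and a fall at day 3 (log2 change -1.05 ± 0.077, adjusted p = 5.45e-07). SLC17A5 (sialin), which exports sialic acid from lysosomes, rose at both days and had 26.9 and 30.7 CPM in the uninjured samples, 55.8 and 54.7 CPM at day 1, and 52.5 and 45.6 CPM at day 3. SLC18B1, a vesicular polyamine transporter, had a log2 change of 0.95 at day 3, which was called neither by DESeq2 nor with scaling to the totals alone. Of the 8 members of these families, 3 were called higher and 0 lower at day 1 (median log2 change 0.40), and 4 higher and 3 lower at day 3 (median 0.45). These calls were 37.5% higher and 0% lower at day 1, against 30.5% and 31.7% of all genes tested. At day 3 they were 50% and 37.5%, against 28.8% and 26.4%. With scaling to the totals alone the calls were 3 higher and 1 lower at day 1, and 3 higher and 3 lower at day 3.

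Among ion transporters, SLC4A7 and SLC12A2, which load cells with bicarbonate or chloride, rose at day 1. Of the 21 transporters of bicarbonate, chloride, sodium, calcium, protons and sulphate, 3 were called higher and 6 lower at day 1 (median log2 change -0.27), and 5 higher and 8 lower at day 3 (median -0.31). Under scaling to totals alone, 2 were higher and 10 lower at day 1 and 1 higher and 12 lower at day 3. The calls were 14.3% higher and 28.6% lower at day 1 and 23.8% and 38.1% at day 3, against 30.5% and 31.7% at day 1 and 28.8% and 26.4% at day 3 of all genes tested. DESeq2 called 3 higher and 3 lower at day 1, and 1 higher and 5 lower at day 3. SLC4A7, an electroneutral sodium bicarbonate importer, had 19.1 and 22.3 CPM in the uninjured samples, 154 and 137 CPM at day 1, and 45.8 and 39.97 CPM at day 3. It was 7-fold higher at day 1 (log2 change 2.81 ± 0.11, adjusted p = 2.9e-09) and 2.06-fold higher at day 3 (log2 change 1.04 ± 0.13, adjusted p = 3.85e-05), with no overlap between the 3 groups. SLC12A2 (NKCC1), which loads cells with sodium, potassium and chloride, had 75.1 and 83.4 CPM in the uninjured samples, 188 and 184 CPM at day 1, and 93.7 and 82.4 CPM at day 3. Its level rose at day 1 (log2 change 1.23 ± 0.085, adjusted p = 2.54e-07), and the day 3 samples overlapped the uninjured ones. SLC26A2, a sulphate transporter, had 61 and 61 CPM in the uninjured samples, 26.9 and 20.8 CPM at day 1, and 27.9 and 30.4 CPM at day 3. It fell by 1.34 at day 1 and fell by 1.07 at day 3 on the log2 scale. SLC4A4, an electrogenic sodium bicarbonate transporter, had 10.8 and 7.5 CPM in the uninjured samples, 12.6 and 11.9 CPM at day 1, and 2.53 and 1.96 CPM at day 3. It was 3.97-fold lower at day 3 than in uninjured cornea (log2 change -1.99 ± 0.32, adjusted p = 0.000255), with day 1 not called against uninjured.

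Among metal transporters, a magnesium transporter and a Golgi zinc transporter rose at day 1, and a zinc importer rose at day 3. Of the 24 transporters of zinc, copper, iron, manganese, magnesium and heme, 5 were called higher and 3 lower at day 1 (median log2 change 0.00), and 4 higher and 3 lower at day 3 (median 0.01). These calls were 20.8% higher and 12.5% lower at day 1, against 30.5% and 31.7% of all genes tested. At day 3 they were 16.7% and 12.5%, against 28.8% and 26.4%. With scaling to the totals alone the calls were 2 higher and 9 lower at day 1, and 1 higher and 13 lower at day 3. SLC41A1, a magnesium transporter, had 12.8 and 13.4 CPM in the uninjured samples, 52.5 and 49.7 CPM at day 1, and 10.8 and 9.32 CPM at day 3. Its level was 3.9-fold higher at day 1 (log2 change 1.96 ± 0.13, adjusted p = 1.84e-07) and was not called at day 3 against uninjured. SLC30A7 (ZnT7), which moves zinc into the Golgi, had 49 and 47.3 CPM in the uninjured samples, 104 and 108 CPM at day 1, and 48.4 and 46.1 CPM at day 3, a rise at day 1 (log2 change 1.14 ± 0.080, adjusted p = 2.72e-07). SLC39A2 (ZIP2), a zinc importer of the cell surface, had 2.59 and 3.66 CPM in the uninjured samples, 5.29 and 5.83 CPM at day 1, and 24.6 and 21.1 CPM at day 3. It was 7.19-fold higher at day 3 (log2 change 2.85 ± 0.22, adjusted p = 6.61e-07), while its day 1 value of 0.80 was not called with any one of uninjured replicate 1 (0.59), day 1 replicate 1 (0.87) or day 1 replicate 2 (0.74) left out, nor by DESeq2, with scaling to the totals alone or with a replicate block (0.80). SLC31A1 (CTR1), the high-affinity copper importer, fell at day 3 (log2 change -0.66 ± 0.14, adjusted p = 0.00243). SLC39A10, a zinc importer, had a day 3 log2 change of 0.74 that was not called by DESeq2 or with scaling to the totals alone.

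The 4 phosphate importers had 3 higher and 1 lower calls at day 1, and 1 higher and 1 lower at day 3. These calls were 75% higher and 25% lower at day 1, against 30.5% and 31.7% of all genes tested. At day 3 they were 25% and 25%, against 28.8% and 26.4%. SLC34A3, a sodium-phosphate importer known from the kidney, was not listed in uninjured cornea and had 8 and 5 counts at day 1 and 25 and 21 counts at day 3. It is among the higher calls at both days. A gene that is not listed may have had a few counts, so these calls of SLC34A3 rest on an absence. SLC20A1 (PiT-1) had 249 and 254 CPM in the uninjured samples, 321 and 316 CPM at day 1, and 239.5 and 239 CPM at day 3, a log2 change of 0.34 at day 1 (adjusted p = 0.00152) that was not called with scaling to the totals alone. SLC20A2 (PiT-2) had 24.7 and 18.1 CPM in the uninjured samples, 40.1 and 34.1 CPM at day 1, and 30.2 and 26.7 CPM at day 3. It rose at day 1 (log2 change 0.81 ± 0.16, adjusted p = 0.001). SLC34A2, a sodium-phosphate importer of epithelial surfaces, had 16.1 and 19.4 CPM in the uninjured samples, 10.8 and 7.77 CPM at day 1, and 11.3 and 4.41 CPM at day 3. Its log2 changes of -0.92 and -1.16 were not called by DESeq2 or without uninjured replicate 2 (-0.77 and -1.02). The day 3 value was -2.00 without day 3 replicate 1 and -0.66 without day 3 replicate 2. With scaling to the totals alone, 2 were called higher and 1 lower at day 1.

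The nucleoside importer SLC28A3 rose and the vitamin C importer SLC23A2 fell at both days. Of the 18 members of these families, 5 were called higher and 8 lower at day 1 (median log2 change -0.32), and 5 higher and 8 lower at day 3 (median -0.41). These calls were 27.8% higher and 44.4% lower at each day. Of all genes tested, the shares were 30.5% and 31.7% at day 1 and 28.8% and 26.4% at day 3. Under scaling to totals alone, 4 were higher and 9 lower at day 1 and 4 higher and 10 lower at day 3. SLC28A3 (CNT3), a concentrative importer of nucleosides, had 8.37 and 6.98 CPM in the uninjured samples, 113 and 109 CPM at day 1, and 36.1 and 28.4 CPM at day 3. It was 14.5-fold higher at day 1 (log2 change 3.86 ± 0.14, adjusted p = 1.43e-09) and 4.23-fold higher at day 3 (log2 change 2.08 ± 0.17, adjusted p = 1.17e-06). SLC23A2 (SVCT2), the sodium-coupled importer of vitamin C, had 163 and 169 CPM in the uninjured samples, 53.8 and 55.5 CPM at day 1, and 38.5 and 40.5 CPM at day 3. The 2 samples of each group lay close together, and the level was 3.05-fold lower at day 1 (log2 change -1.61 ± 0.077, adjusted p = 1.37e-08) and 4.22-fold lower at day 3 (log2 change -2.08 ± 0.081, adjusted p = 3.17e-09). SLC47A2, an exporter of organic cations, had 19.1 and 24.2 CPM in the uninjured samples, 1.32 and 1.67 CPM at day 1, and 4.84 and 4.9 CPM at day 3. It fell at both days, with log2 changes of -3.86 and -2.16. Reads could be shared between SLC47A2 and its close neighbour in sequence SLC47A1, so this value is uncertain. SLC44A1, a choline transporter chosen after its values were seen, fell by 1.24 at day 1 and fell by 1.30 at day 3 on the log2 scale.

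After TMM scaling, the carboxylate, bile acid and fatty acid families had the largest share of members called lower of the 11 groups, at day 1 and at day 3 against uninjured. Of the 17 members of these families, 1 was called higher and 11 lower at day 1 (median log2 change -1.14), and 0 higher and 8 lower at day 3 (median -0.75). These calls were 5.88% higher and 64.7% lower at day 1, against 30.5% and 31.7% of all genes tested. At day 3 they were 0% and 47.1%, against 28.8% and 26.4%. With scaling to the totals alone the calls were 0 higher and 12 lower at day 1, and 0 higher and 11 lower at day 3. SLC16A12, a creatine transporter of the monocarboxylate family, had 18.9 and 14.7 CPM in the uninjured samples, 5.07 and 2.77 CPM at day 1, and 2.3 and 3.92 CPM at day 3. Both injured groups lay below the uninjured samples (log2 change -2.04 ± 0.28, adjusted p = 7.22e-05 at day 1, and log2 change -2.42 ± 0.30, adjusted p = 3.4e-05 at day 3). SLC27A3, an acyl-CoA synthetase of the fatty acid transport family, had 28.5 and 27.9 CPM in the uninjured samples, 10.8 and 11.9 CPM at day 1, and 9.67 and 12.5 CPM at day 3. It fell by 1.32 at day 1 and fell by 1.35 at day 3 on the log2 scale. SLC27A4, another member of that family, had 8.97 and 11.2 CPM in the uninjured samples, 4.19 and 4.99 CPM at day 1, and 15 and 13 CPM at day 3. It was 2.22-fold lower at day 1 (log2 change -1.15 ± 0.24, adjusted p = 0.00157) and not called at day 3 against uninjured. SLC10A3, an orphan of the bile acid family, fell at day 3 (log2 change -0.75 ± 0.15, adjusted p = 0.00124). SLC16A1 (MCT1), the lactate and pyruvate carrier, had 7.37 and 11 CPM in the uninjured samples, 13.7 and 11.9 CPM at day 1, and 11.1 and 10.8 CPM at day 3, with no call at day 1 or day 3 against uninjured.

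Of the 11 sugar and polyol transporters, 2 were called higher and 4 lower at day 1 (median log2 change 0.06), and 2 higher and 1 lower at day 3 (median -0.04). These calls were 18.2% higher and 36.4% lower at day 1, against 30.5% and 31.7% of all genes tested. At day 3 they were 18.2% and 9.09%, against 28.8% and 26.4%. Under scaling to totals alone, 2 were higher and 5 lower at day 1 and 1 higher and 4 lower at day 3. SLC2A14 had 39.5 and 33.3 CPM in the uninjured samples, 4.41 and 5.83 CPM at day 1, and 20.5 and 24.5 CPM at day 3. It was 7.16-fold lower at day 1 (log2 change -2.84 ± 0.20, adjusted p = 2.91e-07), and its day 3 log2 change of -0.69 was not called by DESeq2. SLC2A14 is a near copy of the glucose transporter SLC2A3, so reads of either may be counted under this name. SLC45A4, placed with the sugars by its family, rose at day 1 (log2 change 0.99 ± 0.22, adjusted p = 0.00229) and had 6.78 and 6.98 CPM in the uninjured samples, 12.3 and 15.3 CPM at day 1, and 13.8 and 9.81 CPM at day 3. Its day 3 log2 change of 0.78 was not called without uninjured replicate 1 (0.77), uninjured replicate 2 (0.81) or day 3 replicate 1 (0.51).

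**Figure D2:**
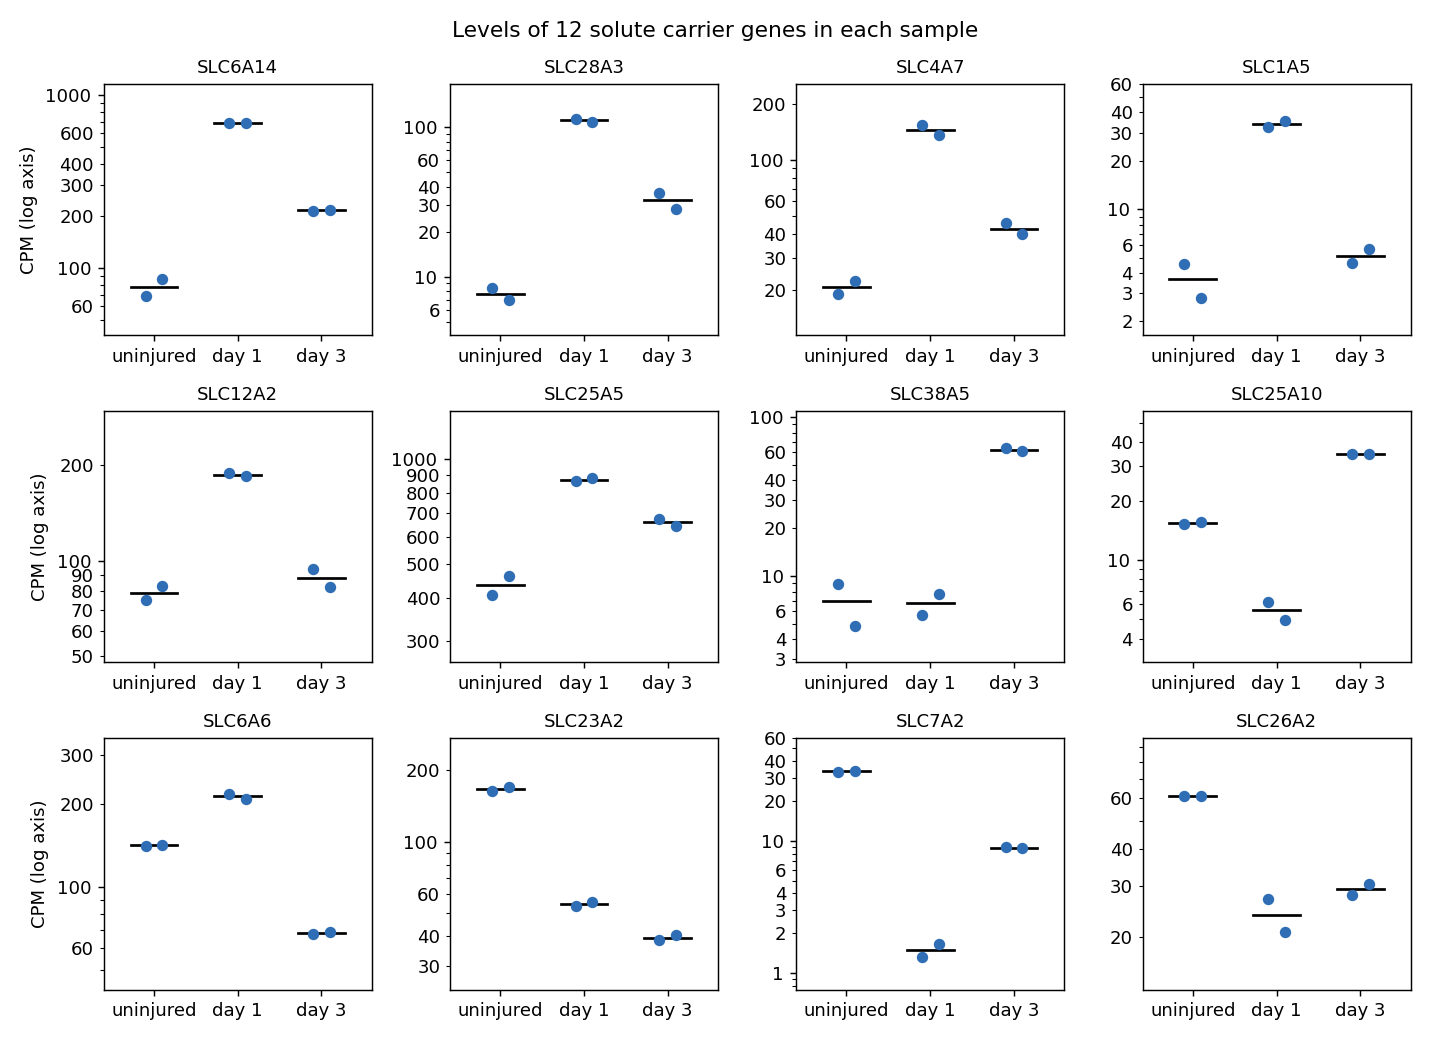
Levels of 12 solute carrier genes, with 1 point per sample in uninjured, day 1 and day 3 cornea and a black line at the mean of each pair; the y axis is CPM after TMM scaling on a log axis. SLC6A14 lies highest at day 1 and between the other groups at day 3, and SLC23A2 lies lower in both injured groups than in uninjured cornea.

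In the SLC25 family more carriers were called lower than higher at both days, while the phosphate carrier and an ADP/ATP exchanger, 2 of the carriers with the most counts, were higher at day 1 after TMM scaling. Of the 36 mitochondrial carriers, 5 were called higher and 16 lower at day 1 (median log2 change -0.59), and 7 higher and 15 lower at day 3 (median -0.24). These calls were 13.9% higher and 44.4% lower at day 1, against 30.5% and 31.7% of all genes tested. At day 3 they were 19.4% and 41.7%, against 28.8% and 26.4%. With scaling to the totals alone the calls were 3 higher and 23 lower at day 1, and 1 higher and 20 lower at day 3. SLC25A3, which imports phosphate for ATP synthesis, had 608 and 603 CPM in the uninjured samples, 853 and 863 CPM at day 1, and 893 and 876 CPM at day 3. SLC25A5, the ADP/ATP exchanger ANT2, had 406 and 463 CPM in the uninjured samples, 865 and 884 CPM at day 1, and 675 and 644 CPM at day 3. SLC25A6, the exchanger ANT3, had 521 and 482 CPM in the uninjured samples, 556 and 581 CPM at day 1, and 639 and 614 CPM at day 3. Of all member counts, these 3 genes together held 23.2% and 23% in uninjured cornea, 27.6% and 28.1% at day 1 and 31.4% and 30.9% at day 3. SLC25A5 rose at day 1 (log2 change 1.01 ± 0.085, adjusted p = 1.27e-06), a call that held with scaling to the totals alone. The other changes of the 3 were smaller. SLC25A3 had log2 changes of 0.50 and 0.55 and SLC25A5 had 0.60 at day 3, none of them called with scaling to the totals alone. SLC25A6 had 0.18 and 0.32 after TMM scaling and -0.16 and -0.10 with scaling to the totals alone, and its day 3 call was lost without uninjured replicate 2 (0.27).

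The ADP/ATP exchanger ANT1 moved against SLC25A5. SLC25A4, which encodes it, had 154 and 148 CPM in the uninjured samples, 88.4 and 96.6 CPM at day 1, and 112 and 116 CPM at day 3. It fell at day 1 (log2 change -0.71 ± 0.078, adjusted p = 1.14e-05) and at day 3 (log2 change -0.40). The 3 exchangers are close in sequence, so their counts may be split between them. SLC25A42, a carrier of coenzyme A, had 15.5 and 13.3 CPM in the uninjured samples, 2.64 and 3.88 CPM at day 1, and 11.1 and 8.83 CPM at day 3. It was 4.46-fold lower at day 1 (log2 change -2.16 ± 0.26, adjusted p = 2.21e-05). SLC25A27, an uncoupling-protein relative (UCP4), had 13.2 and 13.6 CPM in the uninjured samples, 3.31 and 3.61 CPM at day 1, and 4.61 and 6.62 CPM at day 3, with falls at day 1 (log2 change -1.95 ± 0.25, adjusted p = 3.71e-05) and at day 3 (log2 change -1.26). SLC25A12 (aralar), an aspartate-glutamate carrier of the malate-aspartate shuttle, had 17.5 and 19 CPM in the uninjured samples, 4.85 and 5.83 CPM at day 1, and 14.3 and 16.7 CPM at day 3. It fell at day 1 (log2 change -1.79 ± 0.20, adjusted p = 1.06e-05), and it was higher at day 3 than at day 1 (log2 change 1.54). SLC25A11, the oxoglutarate carrier of the same shuttle, had 74.7 and 74.1 CPM in the uninjured samples, 37.9 and 42.2 CPM at day 1, and 59.9 and 53.2 CPM at day 3. It fell at day 1 (log2 change -0.90 ± 0.10, adjusted p = 8.68e-06). SLC25A4 and SLC25A11 were not picked by the rule for named members and were chosen after their values were seen. SLC25A37 (mitoferrin 1), an iron importer, had 71.7 and 67.7 CPM in the uninjured samples, 65.5 and 65.8 CPM at day 1, and 36.1 and 35.8 CPM at day 3. It fell at day 3 (log2 change -0.95 ± 0.089, adjusted p = 3.74e-06).

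Of 7 members with at least 200 counts called in opposite directions at day 1 and at day 3, 3 were mitochondrial carriers. Mitochondrial carriers make up 36 of the 193 members. No share of all genes stands beside this count, so it only describes these members. SLC25A10, the dicarboxylate carrier, had 15.3 and 15.7 CPM in the uninjured samples, 6.17 and 4.99 CPM at day 1, and 34.8 and 34.8 CPM at day 3. The 3 groups were fully apart, with a fall at day 1 (log2 change -1.46 ± 0.19, adjusted p = 4.15e-05) and a rise at day 3 (log2 change 1.16 ± 0.13, adjusted p = 1.5e-05). SLC25A30 had 22.1 and 22.7 CPM in the uninjured samples, 56.9 and 61.6 CPM at day 1, and 18 and 14.5 CPM at day 3. Its level rose at day 1 (log2 change 1.40 ± 0.12, adjusted p = 1.57e-06). Its day 3 log2 change of -0.46 was not called without uninjured replicate 1 (-0.48), uninjured replicate 2 (-0.44) or day 3 replicate 2 (-0.32). SLC25A13 (citrin), the second aspartate-glutamate carrier, had 11.6 and 11.2 CPM in the uninjured samples, 7.27 and 7.49 CPM at day 1, and 15 and 18.6 CPM at day 3. Its changes of -0.62 and 0.56 were called by edgeR but not by DESeq2. The day 1 call was lost without uninjured replicate 1 (-0.59), uninjured replicate 2 (-0.64) or day 1 replicate 1 (-0.60). The day 3 call was lost without uninjured replicate 1 (0.59), uninjured replicate 2 (0.54) or day 3 replicate 2 (0.40).

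**Figure D3:**
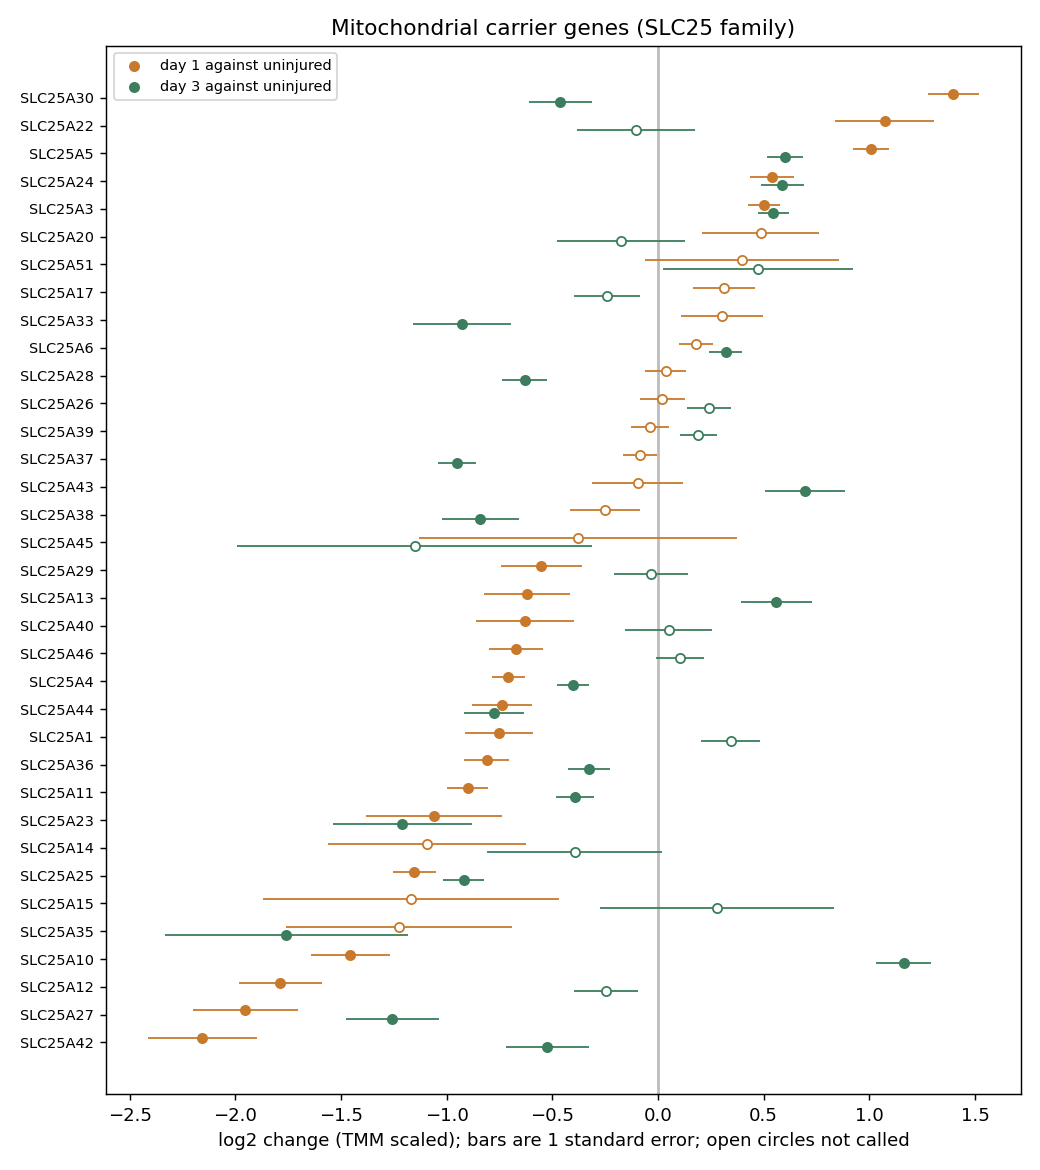
Log2 change of mitochondrial carrier genes at day 1 and at day 3 against uninjured, after TMM scaling; bars are 1 standard error, and filled circles have an adjusted p under 0.05. SLC25A42 and SLC25A27 lie lowest at day 1, and SLC25A10 lies at -1.46 at day 1 and 1.16 at day 3.

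Members of the families placed with the Golgi and endoplasmic reticulum were called lower more often than higher at day 1. By family number, 24 members were placed with carriers of nucleotide sugars, sugar phosphates or acetyl-CoA, though not all carry these. Of the 24, 2 were called higher and 10 lower at day 1 (median log2 change -0.43), and 3 higher and 5 lower at day 3 (median -0.23). These calls were 8.33% higher and 41.7% lower at day 1, against 30.5% and 31.7% of all genes tested. At day 3 they were 12.5% and 20.8%, against 28.8% and 26.4%. Under scaling to totals alone, 1 was higher and 14 lower at day 1 and 2 higher and 15 lower at day 3. At day 3 against day 1, 10 were called higher and 2 lower after TMM scaling. That is 41.7% and 8.33%, against 30.5% and 28.8% of all genes tested. SLC35F3, a proposed thiamine transporter, had 14.6 and 19.4 CPM in the uninjured samples, 0 and 1.67 CPM at day 1, and 9.9 and 11.3 CPM at day 3. It had 0 and 6 counts at day 1 and fell there (log2 change -4.48 ± 0.49, adjusted p = 1.09e-05). The fitted size rests on the few counts of day 1 replicate 2, without which it was -9.34. Its day 3 log2 change of -0.69 was called neither by DESeq2 nor with a replicate block (-0.67), nor with any one of the 4 samples left out, where it ran from -0.87 without uninjured replicate 1 to -0.46 without uninjured replicate 2. SLC37A4, the glucose-6-phosphate transporter of the endoplasmic reticulum, had 15.5 and 12.7 CPM in the uninjured samples, 3.97 and 4.16 CPM at day 1, and 6.22 and 7.36 CPM at day 3. It fell at both days (log2 change -1.79 ± 0.23, adjusted p = 4.58e-05 at day 1, and log2 change -1.05 ± 0.21, adjusted p = 0.00113 at day 3). SLC35D1, which carries UDP-glucuronic acid and was chosen after its values were seen, had 54.2 and 56 CPM in the uninjured samples, 22.9 and 25 CPM at day 1, and 36.6 and 36.8 CPM at day 3. It fell by 1.21 at day 1 and fell by 0.59 at day 3 on the log2 scale.

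SLC35G1 had its lowest levels at day 1 and its highest at day 3. It had 5.18 and 5.23 CPM in the uninjured samples, 1.54 and 2.5 CPM at day 1, and 17.3 and 21.6 CPM at day 3, with a level 3.71-fold higher at day 3 than in uninjured cornea (log2 change 1.89 ± 0.21, adjusted p = 1.6e-05). The day 1 log2 change of -1.39 was not called without day 1 replicate 1 (-1.06), and day 3 was higher than day 1 (log2 change 3.28 ± 0.28, adjusted p = 1.94e-06). SLC37A1, a sugar phosphate exchanger, had 23.1 and 34.4 CPM in the uninjured samples, 40.8 and 43.3 CPM at day 1, and 22.1 and 18.6 CPM at day 3. Its log2 change of 0.53 at day 1 was 0.86 without uninjured replicate 2 and not called without uninjured replicate 1 (0.29), and that of -0.50 at day 3 was not called with a replicate block (-0.49), without uninjured replicate 2 (-0.18), day 3 replicate 1 (-0.63) or day 3 replicate 2 (-0.39). DESeq2 called neither.

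The 5 proteins that carry a transporter's name were not alike. SLC9A3R1 (NHERF1), a scaffold that anchors transporters under the apical membrane, had 145 and 145 CPM in the uninjured samples, 146 and 142 CPM at day 1, and 294 and 273 CPM at day 3. Uninjured and day 1 samples overlapped, and both day 3 samples were higher (log2 change 0.97 ± 0.075, adjusted p = 7.94e-07). SLC2A4RG, a transcription factor named for the glucose transporter gene it binds, had 45.6 and 40.3 CPM in the uninjured samples, 7.27 and 9.71 CPM at day 1, and 34.3 and 38.2 CPM at day 3. It was 5.11-fold lower at day 1 (log2 change -2.35 ± 0.17, adjusted p = 3.13e-07) and not called at day 3 against uninjured. SLC4A1AP (kanadaptin) rose at day 1 (log2 change 0.76 ± 0.13, adjusted p = 0.000334). Its day 3 log2 change was 0.41 after TMM scaling and -0.0094 with scaling to the totals alone, and it was not called without uninjured replicate 2 (0.34) or day 3 replicate 2 (0.35).

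At day 3 against day 1, the 8 named members with the largest changes were SLC35F3, SLC35G1, SLC38A5, SLC25A10, SLC7A2, SLC1A5, SLC4A4 and SLC41A1. SLC35F3 (log2 change 3.79), SLC35G1 (3.28), SLC38A5 (3.23), SLC25A10 (2.62) and SLC7A2 (2.57) were higher at day 3 than at day 1. SLC1A5 (-2.73), SLC4A4 (-2.43) and SLC41A1 (-2.34) were lower. The adjusted p of these 8 ran between 1.71e-07 for SLC41A1 and 0.000146 for SLC35F3, whose log2 change was 8.65 without day 1 replicate 2. Of the strong day 1 rises, SLC28A3 (log2 change -1.78 at day 3 against day 1), SLC4A7 (-1.76), SLC12A2 (-1.08) and SLC30A7 (-1.16) were also lower at day 3 than at day 1. The comparisons with uninjured cornea share the uninjured samples, and those with day 1 share the day 1 samples, so their values are not independent.

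Some members were listed in only part of the groups. The tables hold few genes with 1 to 4 counts (172 to 449 per sample) and many more with 5 to 9 counts (1100 to 1239), so a gene that is not listed may have had a few counts, and no fold is given for it. SLC22A4, a carrier of ergothioneine and organic cations, was not listed in either uninjured sample and had 62 and 48 counts at day 1 and 7 and 7 counts at day 3. SLC44A4, SLC35F2 and SLC34A3 were also not listed in uninjured cornea. SLC44A4 had 27 and 24 counts at day 1 and 12 and 8 at day 3, SLC35F2 had 37 and 24 and 16 and 19, and SLC34A3 had 8 and 5 and 25 and 21. Not listed at day 1 were SLC29A3, a lysosomal nucleoside transporter, with 41 and 53 counts in uninjured cornea and 38 and 31 at day 3, and SLC46A1, the proton-coupled folate transporter, with 23 and 23 and 21 and 17. SLC37A2 (19 and 24, then 11 and 14), SLC10A6 (11 and 12, then 17 and 13) and SLC2A6 (2 and 7, then 18 and 28) were likewise not listed at day 1. SLC6A15 was listed at day 3 alone, with 31 and 19 counts. These 10 members were chosen after their values were seen, for their absence from both tables of a group.

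Proteins that power, anchor or regulate solute carriers were read from a list of 35 partner genes, of which 26 could be tested. At day 1 against uninjured 15 were called higher and 5 lower (13 and 9 with scaling to the totals alone), and at day 3 against uninjured 12 were called higher and 5 lower (6 and 10 with scaling to the totals alone). Of all genes tested, 30.5% were called higher and 31.7% lower at day 1, and 28.8% and 26.4% at day 3. ATP1B1, a chain of the sodium pump that drives sodium-coupled carriers, had 20.3 and 18.1 CPM in the uninjured samples, 71.4 and 69.1 CPM at day 1, and 175 and 169 CPM at day 3. It rose at both days, to a level 8.97-fold above uninjured at day 3 (log2 change 3.16 ± 0.090, adjusted p = 3.31e-10). FXYD5, a regulator of the pump, had 11 and 9.42 CPM in the uninjured samples, 15.7 and 15 CPM at day 1, and 97.4 and 93.2 CPM at day 3. Its level rose at day 3 (log2 change 3.23 ± 0.12, adjusted p = 1.54e-09). EMB, a chaperone of monocarboxylate transporters, had 53.8 and 49.9 CPM in the uninjured samples, 108 and 120.4 CPM at day 1, and 179 and 171 CPM at day 3. It rose at both days (log2 changes 1.14 and 1.76). LRRC8A, the obligatory chain of the volume-regulated anion channel, had 37.3 and 35.8 CPM in the uninjured samples, 178 and 179 CPM at day 1, and 74.4 and 74 CPM at day 3. It rose at day 1 (log2 change 2.29 ± 0.078, adjusted p = 1.11e-09). OXSR1, a kinase that activates SLC12A2, rose at both days (log2 changes 1.02 and 0.68).

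The 3 genes of the amino acid response list were called higher at day 1, under TMM scaling and under scaling to the totals alone. ATF4, the transcription factor of that response, had 224 and 209.5 CPM in the uninjured samples, 629 and 619 CPM at day 1, and 237 and 227 CPM at day 3 (log2 change 1.52 ± 0.078, adjusted p = 2.3e-08 at day 1). ASNS, asparagine synthetase, and SESN2, a leucine sensor, had day 1 log2 changes of 1.17 and 0.94. Among the zinc-binding metallothioneins, MT1X had 1471 and 1357 CPM in the uninjured samples, 561 and 326 CPM at day 1, and 231 and 297 CPM at day 3. It was lower at both days (log2 changes -1.67 and -2.42). MT3 had 860 and 879 CPM in the uninjured samples, 4112 and 2255 CPM at day 1, and 172 and 202 CPM at day 3, with its day 1 samples apart from each other. It was higher at day 1 (log2 change 1.87) and lower at day 3 (-2.21) than in uninjured cornea. Metallothionein genes are close in sequence, so their counts may be split between them. SLCO4A1, an organic anion transporter outside the SLC-digit names, had 1.2 and 1.92 CPM in the uninjured samples, 34.6 and 33.6 CPM at day 1, and 2.3 and 3.43 CPM at day 3. It was 21.2-fold higher at day 1 (log2 change 4.41 ± 0.23, adjusted p = 2.18e-08). Among the genes of the list that were not tested were ATP1B2, FXYD3, VDAC1, MT1E, WNK4, SLCO1A2 and SLCO4C1.

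Members also differed with the state of the epithelial cells. Within each sample, barcodes with at least 500 counts were ordered by the mean log level of differentiated corneal markers (KRT12, KRT3, KRT24, ALDH3A1, CLU, AQP5 and KRT78) minus that of basal markers (KRT5, KRT14, KRT15, COL17A1, ITGB4, ITGA6 and TP63). The top 1 in 3 barcodes are called differentiated-side and the bottom 1 in 3 basal-side. These are ranges of a score, with 356 to 521 barcodes each and 49 to 97 barcodes within 0.1 of a cut, and not cell types. The cuts lay at other scores on each day, with the lower cut at -0.95 and -0.77 in uninjured cornea, at 0.17 and 0.27 for day 1 and at -0.73 and -0.75 for day 3. Basal markers in basal-side cells summed to 25060 and 24260 CPM in uninjured cornea, 10890 and 11030 CPM at day 1, and 47720 and 43680 CPM at day 3. In differentiated-side cells they summed to 8061 and 7923, 6747 and 7118, and 28450 and 29060 CPM. A range therefore does not hold like cells on each day. Differentiated-side barcodes had medians of 3452 to 4949 counts and basal-side barcodes 1521 to 3855 counts. Keratocyte and fibroblast markers summed to 64.5 to 426 CPM in differentiated-side cells and 392 to 1695 CPM in basal-side cells, and immune markers to 104 to 372 CPM and 37.4 to 279.8 CPM. The part of these markers and of depth in the range results was not tested.

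Over all 6 samples, 130 members could be tested between the ranges, with the sample as a block. In differentiated-side against basal-side cells, 21 were called higher and 17 lower, 16.2% and 13.1% of those tested, against 15.3% and 15.6% of all 8976 genes tested. The shares of the members were near those of all genes. Against a 2-fold change, 5 were higher and 6 lower, beside 2.3% and 2.11% of those genes. Amino acid transporters were called lower on the differentiated side more often than higher, with 7 of 17 called lower in differentiated-side cells and 1 higher. SLC38A5 had 2.02 ± 2.32 CPM in differentiated-side cells and 59 ± 59.3 CPM in basal-side cells (SD over 6 samples; log2 change -4.78 ± 0.41, adjusted p = 5.71e-05), and SLC1A5 had 3.5 ± 3.25 CPM in differentiated-side cells and 37.6 ± 44.7 CPM in basal-side cells (log2 change -3.19 ± 0.26, adjusted p = 4.94e-05). Both were lower on the differentiated side in 6 of 6 samples. SLC16A1, the lactate carrier, averaged 1.65 ± 0.675 CPM in differentiated-side cells and 30.3 ± 10.5 CPM in basal-side cells (log2 change -4.17 ± 0.28, adjusted p = 2.18e-05), lower in 6 of 6 samples. SLC2A14 and SLC39A13, a zinc transporter of the secretory pathway, were also lower on the differentiated side in 6 of 6 samples, with log2 changes of -5.51 and -2.09. The exchangers SLC7A8 (-1.71) and SLC7A5 (-1.13) and their partner chain SLC3A2 (-0.74) were lower there too, each in 6 of 6 samples. These last 3 were chosen after their values were seen.

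Ion transporters were higher on the differentiated side where they were called, 4 of 13 tested and 0 lower. That is 30.8% and 0%, against 15.3% and 15.6% of all genes tested between the ranges. SLC12A2 averaged 182 ± 83.2 CPM in differentiated-side cells and 50.3 ± 17.8 CPM in basal-side cells (log2 change 1.82 ± 0.20, adjusted p = 0.000257), and SLC4A11, a proton and water transporter known from a dystrophy of the corneal endothelium, averaged 19.2 ± 12.7 CPM in differentiated-side cells and 3.73 ± 1.8 CPM in basal-side cells (log2 change 2.31 ± 0.44, adjusted p = 0.00411). Both were higher in 6 of 6 samples. SLC35F1, an orphan member, averaged 25.2 ± 6.93 CPM in differentiated-side cells and 3.08 ± 1.96 CPM in basal-side cells (log2 change 3.02 ± 0.34, adjusted p = 0.000264), and SLC45A4 averaged 16.6 ± 5.22 CPM in differentiated-side cells and 3.53 ± 1.99 CPM in basal-side cells (log2 change 2.21 ± 0.28, adjusted p = 0.000499). SLC39A2 was higher in 6 of 6 samples (log2 change 1.85), but the call was lost without uninjured replicate 2, where the log2 change was 1.79.

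The side on which a member was higher could change with the day. A test of the difference in range log2 change between days, added after seeing the data, used 1 log2 ratio of the ranges per sample with limma and covered 165 members among 10830 genes. At day 1 against uninjured 43 members differed (26.1%, against 21.6% of all genes), and at day 3 against uninjured 35 members differed (21.2%, against 19% of all genes). Within 1 group of samples, members called higher and lower in differentiated-side cells numbered 44 and 27 in uninjured cornea (20.4% and 16.7% of all genes), 32 and 40 at day 1 (20.1% and 20.3%) and 27 and 23 at day 3 (16.6% and 16.5%). The day 1 count was 16 without uninjured replicate 1, 21 without uninjured replicate 2, 27 without day 1 replicate 1, 23 without day 1 replicate 2, 22 without day 3 replicate 1 and 21 without day 3 replicate 2. The day 3 count was 20 without uninjured replicate 1, 22 without uninjured replicate 2, 15 without day 3 replicate 1 and 17 without day 3 replicate 2. SLC6A14 changed sides. In uninjured cornea it had 96.4 and 105 CPM in differentiated-side cells against 0 and 5.62 CPM in basal-side cells. At day 1 it had 178 and 121 CPM in differentiated-side cells against 663 and 745 CPM in basal-side cells, and at day 3 it had 288 and 288 CPM in differentiated-side cells against 65 and 52.5 CPM in basal-side cells. It was thus higher on the differentiated side in uninjured cornea and at day 3 and higher on the basal side at day 1 (day 1 minus uninjured, difference of log2 changes -7.27 ± 0.42, adjusted p = 5.64e-10). The uninjured basal-side level rests on very few counts, so the size depends on the small count added before taking logs. It was -3.23 with a split at the median score and -8.29 without uninjured replicate 2.

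Other members also had a range difference that was not the same in uninjured cornea as at day 1 or day 3. SLC25A5 had 536 and 588 CPM in differentiated-side cells against 235 and 285 CPM in basal-side cells in uninjured cornea, 825 and 881 CPM in differentiated-side cells against 952 and 942 CPM in basal-side cells at day 1 and 700.2 and 664 CPM in differentiated-side cells against 630.5 and 623 CPM in basal-side cells at day 3 (day 1 minus uninjured, difference of log2 changes -1.27 ± 0.10, adjusted p = 5.49e-08). SLC7A1 had 44.1 and 41.4 CPM in differentiated-side cells against 18.9 and 16.9 CPM in basal-side cells in uninjured cornea and 96.8 and 103 CPM in differentiated-side cells against 126 and 113 CPM in basal-side cells at day 1 (difference of log2 changes -1.46 ± 0.24, adjusted p = 0.000249). SLC38A1 was close to level in uninjured cornea, with 25.9 and 25.1 CPM in differentiated-side cells against 19.96 and 19.7 CPM in basal-side cells. At day 1 it had 64.5 and 61 CPM in differentiated-side cells against 166 and 171 CPM in basal-side cells (difference of log2 changes -1.76 ± 0.24, adjusted p = 3.04e-05). SLC28A3 had 10.01 and 6.76 CPM in differentiated-side cells against 1.05 and 0.937 CPM in basal-side cells in uninjured cornea and 95.1 and 95.9 CPM in differentiated-side cells against 110.4 and 96.8 CPM in basal-side cells at day 1. That difference was called (difference of log2 changes -2.12 ± 0.37, adjusted p = 0.000401), but not with a split at the median score (-0.90). SLC12A7, a potassium-chloride exporter, also changed sides. It had 46.4 and 36.6 CPM in differentiated-side cells against 10.5 and 7.49 CPM in basal-side cells in uninjured cornea and 18.6 and 16.7 CPM in differentiated-side cells against 43.1 and 45.3 CPM in basal-side cells at day 3 (day 3 minus uninjured, difference of log2 changes -3.36 ± 0.37, adjusted p = 1.89e-06). SLC26A2 was higher on the basal side in uninjured cornea, with 31.4 and 36.6 CPM in differentiated-side cells against 117 and 119 CPM in basal-side cells, and at day 3 it had 29.5 and 37.6 CPM in differentiated-side cells against 26.3 and 30.2 CPM in basal-side cells (difference of log2 changes 1.93 ± 0.32, adjusted p = 0.000192). The call of SLC26A2 was lost without day 3 replicate 2 (1.88). For this test SLC25A5, SLC7A1, SLC38A1, SLC28A3 and SLC26A2 were chosen after their values were seen.

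**Figure D4:**
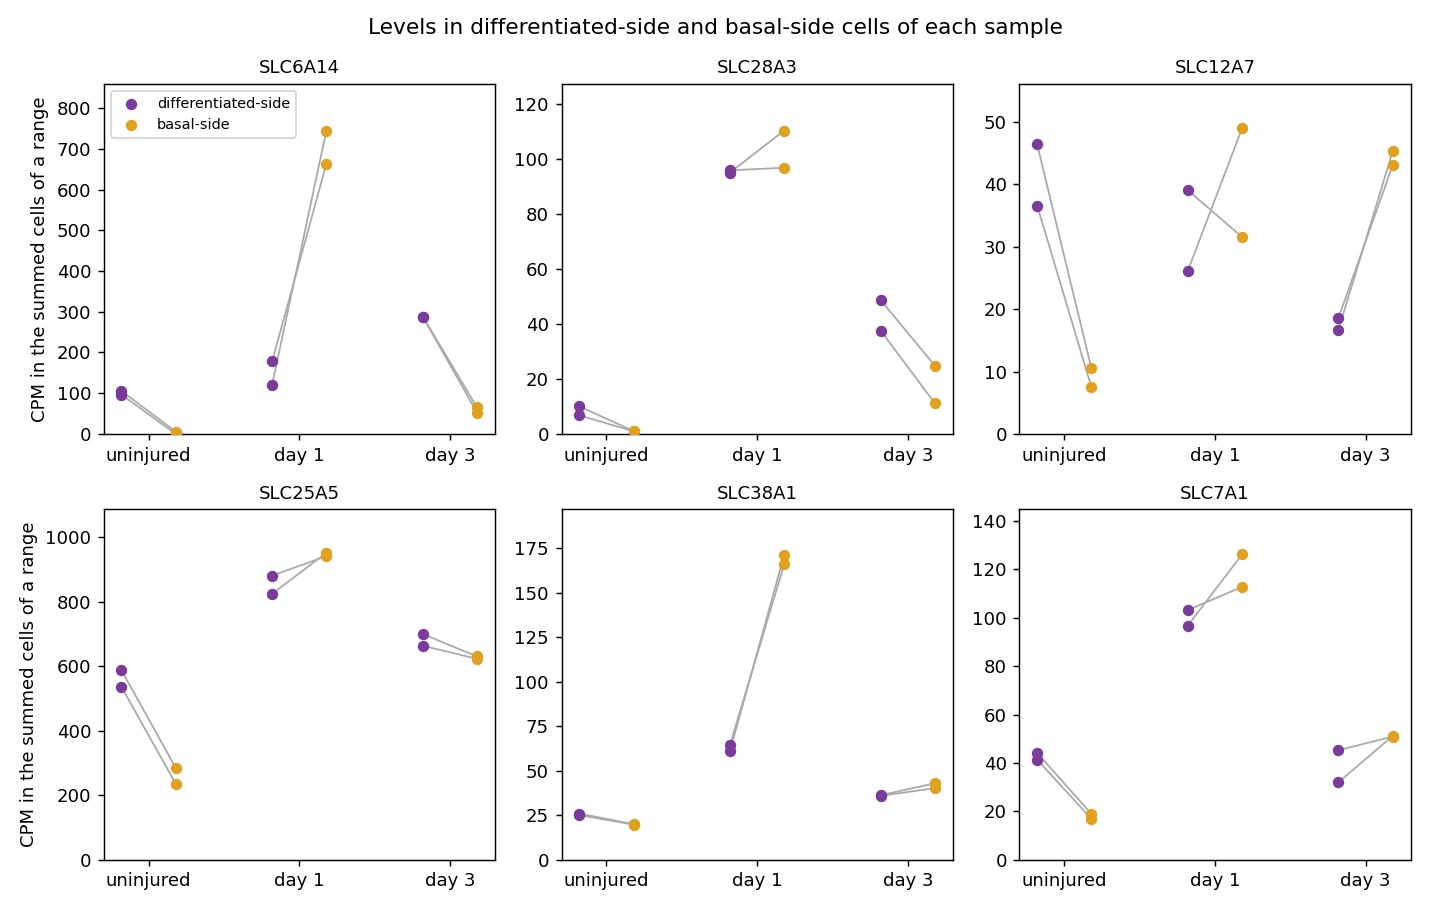
Levels of 6 solute carrier genes in CPM (linear axis from 0) in the differentiated-side (left, purple) and basal-side (right, orange) cells of each sample, with lines joining the 2 ranges of a sample. SLC6A14 lies higher on the differentiated side in uninjured and day 3 cornea and higher on the basal side at day 1.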

How the data were processed

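Single cells of 6 samples were captured on the 10x Genomics platform and their cDNA was read with HIT-scISOseq, per the labels' protocols. The submitters' processing notes name Cell Ranger. Genome build and annotation: not given in the sources used here. The deposited gene tables hold counts per gene and cell barcode, as whole numbers, and the deposited isoform tables hold counts per isoform and barcode. Counts were summed over all barcodes of a sample, giving 3733442 to 4928103 per sample, and no cell was removed as a doublet.

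The sums were tested with edgeR 4.0.16 in R 4.3.3 (TMM scaling, low-count filter, quasi-likelihood test on the group over 6 samples, Benjamini-Hochberg threshold 0.05; SE is the size of the log2 change over the square root of F). Score ranges were tested on 12 sums with the sample as a block. Their difference between days was tested with limma 3.58.1 on 1 log2 ratio per sample (prior count 2), in place of an edgeR fit with infinite prior degrees of freedom; this was chosen after seeing the data. Alternatives were scaling to totals, DESeq2 1.42.0, no low-count filter, a 2-fold test, a replicate block, barcodes of at least 500 counts only, a split of barcodes at the median score, and each replicate left out. The method was checked on simulated counts. Members and lists were chosen with earlier results of these data known. Text names members with at least 200 counts: up to 3 per substrate group and day with the largest called change and no overlap between the groups' samples, the 8 largest at day 3 against day 1, the 6 with the most counts, those called in opposite directions at the 2 days, and 5 from each end of the range test; other names are marked. Some genes are not reported here.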

Additional observations from a re-analysis of the deposited data

Results flagged for a closer look

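7 members with at least 200 counts were called in opposite directions at day 1 and day 3 against the same uninjured samples. That choice fixes the direction of their difference between day 3 and day 1. No share of all genes called in this way stands beside the count. The log2 change at day 3 against day 1 was 2.62 for SLC25A10, 1.18 for SLC25A13, 3.28 for SLC35G1, -1.86 for SLC25A30, -1.04 for SLC37A1, -1.64 for SLC6A6 and -0.99 for SLC7A5.

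In 3 members with at least 200 counts, the range test within each group called differentiated-side cells higher in 1 group and lower in another, and the difference between the groups was called too. No share of all genes under this rule stands beside the count. Of all 10830 genes, 21.6% had a range difference that differed from uninjured at day 1 and 19% at day 3. Other members, among them SLC26A4 and SLC15A2 with fewer counts and SLC20A2, SLC7A1, SLC38A1, SLC25A5 and SLC26A2 with 1 side not called, also turned sign in both samples of each group. The difference of range log2 changes was -7.27 for SLC6A14 at day 1 minus uninjured and -3.36 for SLC12A7 at day 3 minus uninjured. SLC4A4 at day 3 had 4.49 and 3.48 CPM in differentiated-side cells against 0 and 0 CPM in basal-side cells, and in uninjured cornea it had 3.18 and 2.38 CPM in differentiated-side cells against 27.3 and 12.2 CPM in basal-side cells. Its difference of 4.17 depends on the small count added before taking logs and is no measure of size.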

How the results depend on the processing

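Of 2137 values of named genes under alternatives, 1938 kept their direction and side of the threshold, 187 lost the call, 6 gained one and 6 changed sign. All 6 sign changes came with scaling to the totals alone: SLC25A6 at day 1 (-0.16) and day 3 (-0.10), SLC38A2 (-0.26) and SLC7A5 (-0.060) at day 1, and SLC4A1AP (-0.0094) and SESN2 (-0.014) at day 3. That scaling gave 25 members higher at day 1, and 17 higher and 103 lower at day 3, since it lowers the median of all genes. DESeq2 called 22 higher and 30 lower at day 3 against uninjured, and 32 higher and 30 lower at day 3 against day 1; the cause was not tested. The 2-fold test, which asks for larger changes, left 13 higher and 23 lower at day 1, 11 and 8 at day 3, 19 and 9 at day 3 against day 1, and 5 and 6 between ranges. With each replicate left out in turn, members called higher and lower numbered 35 to 41 and 51 to 65 at day 1, 32 to 44 and 41 to 61 at day 3, 43 to 50 and 35 to 49 at day 3 against day 1, and 18 to 21 and 13 to 18 between ranges. Members whose range difference differed from uninjured numbered 16 to 27 at day 1 and 15 to 36 at day 3 in the same way. At day 1 they numbered 26 with no low-count filter and 28 with a split at the median score, against 43; the cause was not tested. An edgeR fit of that test on the 12 sums called 30 and 37, but its prior degrees of freedom were infinite, so a gene's own spread between samples did not enter its test, and it was not used. With a replicate block, 37 members were higher and 61 lower at day 1, 41 and 51 at day 3, and 49 and 48 at day 3 against day 1, and the calls lost included SLC39A2 at day 1 and SLC35F3 and SLC37A1 at day 3. Same-numbered samples had correlated deviations of 0.198, 0.195 and 0.0593 in the 3 pairs of groups and no label ties them, so the numbers were not taken to pair samples. Members near 50 counts are limited by depth.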

Other observations

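The isoform tables used 2 naming systems, so isoforms were not compared between days. In the 3 tables with PB numbers, full splice matches took 52.6% and 53.8% of member isoform counts in the uninjured samples and 58.0% in day 1 replicate 1, beside 61.2%, 62.5% and 62.6% of all isoform counts in the same samples. SLC25A5, led by a full splice match, held 1534 of 14896, 2019 of 17762 and 2802 of 16502 member isoform counts in these samples. The gene tables held 33228, 38515 and 37323 member counts there, so the isoform tables cover only part of them. Isoforms with a splice site outside the annotation took 26.3%, 25.2% and 21.6% of member isoform counts, beside 26.6%, 25.4% and 25.3% of all isoform counts. Incomplete splice matches took 10.6%, 10.3% and 8.90% of member isoform counts, beside 6.03%, 5.94% and 5.91% of all.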
